A study of Mus musculus with 30 samples.

Results

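N6-methyladenosine (m6A) peak calls that depended on METTL14 and did not come back when the wild-type protein was returned were collected here. The unit was the bin, a stretch of 100 nt inside a gene, and a bin was called in a library when that library's deposited peak list held it. A member was a bin called in all 3 lists of wild-type cells, in none of the 3 lists of Mettl14 knockout cells and in none of the 3 lists of knockout cells carrying wild-type METTL14. Members were thus chosen by their calls in these 9 lists, and the KO_5RK and KO_13RK lists described below had no part in the choice. The rule took 1587 bins in 1162 genes, out of 62091 distinct bins in the 15 lists. The members made up 14% of the 11324 bins called in all wild-type lists, and 17.5% of the 9081 of those with no knockout call, which are termed METTL14-dependent below.

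The study profiled m6A in mouse embryonic stem cells of the C57BL/6 strain, grown on gelatin in medium with serum and leukemia inhibitory factor. The 5 lines were unmodified cells (WT), the Mettl14 knockout (KO), and the knockout given METTL14 as the wild-type protein (KO_WT) or as the altered proteins that the labels call KO_5RK and KO_13RK, both termed deficient in arginine methylation. The 3 rescue lines therefore all carry the knockout. Each line had 3 immunoprecipitated and 3 input libraries. The sources used here do not say how many clones stand behind a line, nor how strongly METTL14 was expressed in each rescue. WT and KO_WT thus share the wild-type protein but not the history of the cells. Of 10 stem cell marker genes, 8 carried a call in each WT list, among them Sox2, Nanog and Esrrb, and 7 to 8 did in the KO_WT lists; Pou5f1 and Dppa5a were called in none of these 6 lists.

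m6A is a methyl group placed on adenosines of messenger RNA while the transcript is being made. METTL3 is the catalytic subunit of the writer, and METTL14 is its partner, which holds the RNA substrate and has an arginine-rich disordered tail. The mark lies mostly near stop codons, in last exons and in long internal exons, within a short consensus whose commonest core is GGAC, and it often speeds the decay of the transcript.

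Few member sequences could be read, because only the RefSeq promoter windows of GRCm38.p6 (from 250 bases before to 50 after a gene start) were at hand. Of the 1587 bins, 12 had 20 nt or more inside such a window of their own or of a neighbouring gene. GGAC, read on the bin's strand, was found in 4 of those 12 (33.3%), beside 29.9% of the first 100 bases of 32851 promoter windows and 9 of 17 bins called in all KO_WT lists. The overlaps with a window were shorter than a bin in all but 1 case, so these shares are descriptions only. The 4 stretches are shown because they are the member sequences that hold the core motif, set in capitals and written 5′ to 3′ on the bin's strand. Each is named by the gene entry of its bin, but none lay in a promoter window of that gene. The windows were those of Gm40010 (Bmp7 bin), Gm39872 (Nup160 bin), Prpf31 (Tfpt bin) and Gm9901 (Gm20388 bin).

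Bmp7, chr2:172939691-172939712, minus strand: ctgcaGGACagccacttcctca

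Nup160, chr2:90735644-90735667, plus strand: gaaaacaaagtcaGGACcgaccct

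Tfpt, chr7:3629745-3629774, minus strand: aaggtgacaacgtGGACgatcggtgcaggc

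Gm20388, chr8:123859205-123859230, plus strand: ctgggggccGGACtgggtgaagccga

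The Bmp7 stretch belongs to the bin at 172939613 to 172939712, in the gene of a secreted bone morphogenetic protein, and its mean rank in WT was the 79.7th percentile. Ranks here are percentiles of the authors' enrichment value within a list, with 100 the highest, because the scale of that value is unknown. The bins of Bmp7 and of Nup160, a nuclear pore gene, were called in no arginine mutant list. Those of Tfpt and Gm20388 were each called in 1 KO_5RK list and in no KO_13RK list.

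Since the calls in WT, KO and KO_WT chose the members, the numbers in these lists are given without a test. The 9081 METTL14-dependent bins split into 1587 members, 1722 bins called in 1 KO_WT list, 2060 called in 2 and 3712 called in all 3, the last being termed restored below. Just outside the rule on the other sides lay 3302 bins called in 2 WT lists and 70 called in 1 KO list. The lists differed in length, with 22202 to 23143 distinct bins in WT, 6323 to 8585 in KO, 14172 to 17162 in KO_WT, 11165 to 13001 in KO_5RK and 9581 to 10964 in KO_13RK. A shorter list has more absent bins, and read depth is unknown, so absence of a call does not show absence of m6A.

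Membership moved with the WT and KO_WT lists used and with how a call was made. Without WT replicate 1, 2 or 3, the rule took 2602, 2648 or 2813 bins. Without KO_WT replicate 1, 2 or 3, it took 2090, 2317 or 2076. When each list was cut to its 6328 rows of smallest p, 278 bins met the rule, 11.2% of the bins that were METTL14-dependent under that setting, and 61 of them were among the 1587. With a q below 0.005 required of every call, 1136 bins met it, 399 of them shared. With a call in a touching bin counted as a call, 1707 met it, of which 817 were shared. The rule therefore describes these lists as deposited, and the individual bins it takes depend on the calling threshold.

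The members ranked low in WT. Their median mean percentile over the 3 WT lists was 38.7 (middle 50% of bins 19.2 to 63.1), beside 44.5 for bins called in 1 KO_WT list, 46.3 in 2 and 55.7 for restored bins. By p, with the smallest p at 100, the medians in the same order were 49.2, 54.8, 63.0 and 81.5. A q under 0.005 in all WT lists was held by 399 members (25.1%) and by 79.8% of restored bins. A small upper tail was present as well: 67 members (4.22%) ranked at or above the 90th percentile by enrichment, beside 2.88% of restored bins.

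**Figure D1:**
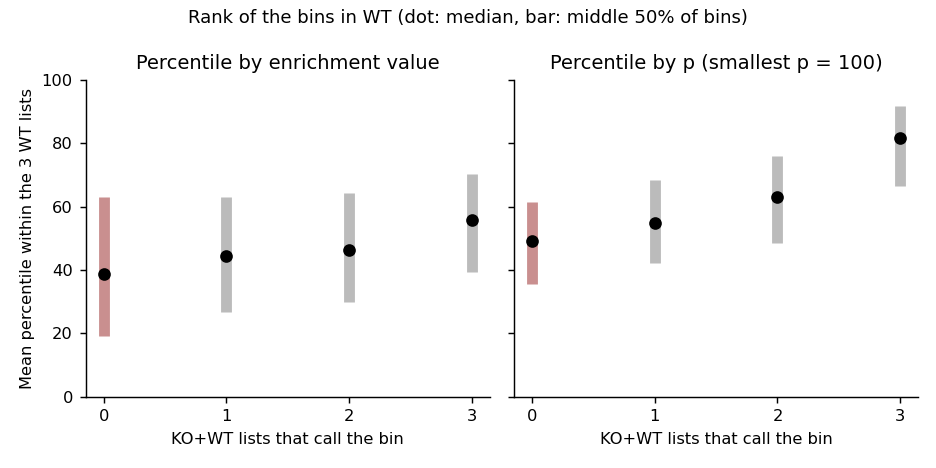
Mean within-list percentile of bins in the 3 WT lists, by enrichment value (left) and by p with the smallest p at 100 (right), for METTL14-dependent bins, by the number of KO_WT lists that call them. Dots are medians and bars the middle 50% of bins. The members (0 lists, red) have medians of 38.7 and 49.2, the lowest of the 4 sets in both panels.

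The arginine mutant lists were not used by the rule, and there the members stayed mostly uncalled. The KO_5RK lists held 17.0%, 14.1% and 11.2% of the members (replicates 1 to 3), a mean of 14.1% ± 2.87 (SD, n = 3). The KO_13RK lists held 7.18%, 6.49% and 9.20%, a mean of 7.62% ± 1.41 (SD, n = 3). Every KO_5RK list thus held more members than every KO_13RK list. The difference of 6.45 percentage points gave p = 0.1 in a two-sided exact permutation test (adjusted p = 0.1 over 4 tests), the smallest that 3 lists against 3 allow, so this comparison could not pass 0.05. The KO_5RK lists were also longer. With the same members and the 6 mutant lists each cut to the 9588 rows of smallest p, the shares were 10.8% and 7.35%, a difference of 3.47 percentage points (exact permutation p = 0.1, chosen after the data were seen), so the size of the difference moved with list length. Both shares also rose when KO_WT replicate 1, 2 or 3 was left out of the rule. The means were then 17.3%, 18.4% and 18.3% in KO_5RK and 10.1%, 10.3% and 10.7% in KO_13RK.

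Restored bins were called far more often in the same 6 lists, 75.4% ± 6.83 in KO_5RK and 61.5% ± 4.75 in KO_13RK (SD, n = 3 each). Members minus restored bins came to -57.65 percentage points (SD 5.27 over the 6 lists, range -64.4 to -51.1), negative in 6 of 6 lists (two-sided exact sign-flip permutation test, p = 0.03125, the smallest 6 lists allow; adjusted p = 0.0417 over 4 tests). The bins just outside the rule, called in 1 KO_WT list, were called in 29.0% ± 6.71 and 18.0% ± 2.96. Members lay below these too, by a difference of -12.7 percentage points (SD 3.63, range -18.6 to -9.25), in 6 of 6 lists (same exact test, p = 0.03125, adjusted p = 0.0417). The members were therefore the least called of the 4 sets in both mutants. Leaving out any 1 of the 6 lists left the direction as it was and raised the smallest possible p to 0.0625.

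**Figure D2:**
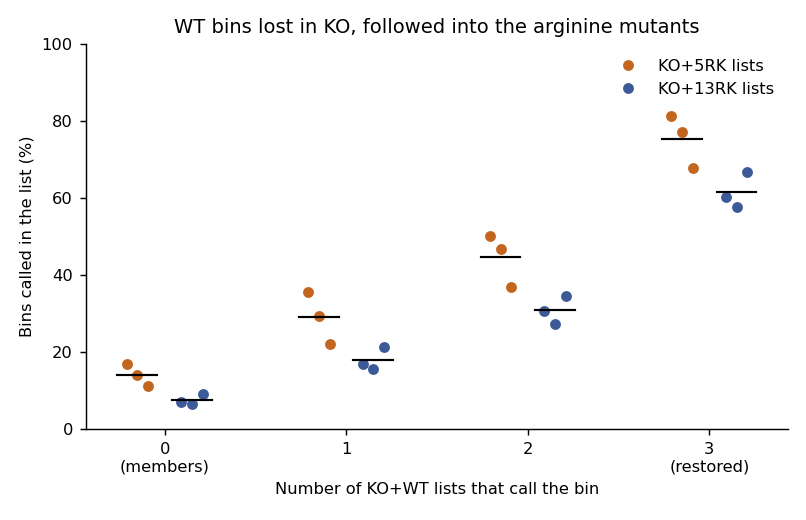
Percent of bins called in each KO_5RK list (orange) and KO_13RK list (blue), for METTL14-dependent bins, by the number of KO_WT lists that call them. Each point is a list and each line the mean of 3. Members lie at 11.2% to 17.0% in KO_5RK and 6.49% to 9.20% in KO_13RK, and both mutants rise to means of 75.4% and 61.5% for restored bins.

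Relative to KO_13RK, the share in KO_5RK was highest for members, while the gap in percentage points was smallest for them. The mean shares were 14.1% and 7.62% for members and 75.4% and 61.5% for restored bins. A ratio has less room to rise where shares are high, so the order of the sets depends on the scale used. The mean share in KO_5RK was 1.85 times that in KO_13RK for members, 1.61 times for bins called in 1 KO_WT list, 1.45 times for those called in 2 and 1.23 times for restored bins. With the mutant lists cut to equal length the order was the same and the ratios smaller, 1.47, 1.35, 1.25 and 1.16. Restored bins were called 5.45 ± 0.631 times as often as members in the KO_5RK lists and 8.17 ± 0.825 times in the KO_13RK lists (SD, n = 3 each), with ranges of 4.80 to 6.06 and 7.26 to 8.87 that did not overlap (two-sided exact permutation test, p = 0.1, the smallest possible; added after the data were seen).

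The gap to restored bins was also present within broad groups of bins formed by WT rank. The METTL14-dependent bins were split into 4 groups of about equal size by their WT p percentile. In the group with the weakest p, 785 members were called in 9.62% of cases per mutant list and 309 restored bins in 54.1%. In the second group the shares were 11.4% of 510 members and 56.7% of restored bins, and in the third 13.3% of 249 and 62.3%. In the strongest group the 43 members were called in 12.8% (range over lists 2.33% to 30.2%) and the 1803 restored bins in 78.3%. Members lay below restored bins in 6 of 6 lists in each group (two-sided exact sign-flip permutation test, p = 0.03125 in each, not adjusted). Members were 34.6% of the bins of the weakest group and 1.89% of the strongest. The weakest group held 49.5% of all members and 8.32% of all restored bins. Ranks were not compared within a group, so the sets may still differ in WT rank there.

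**Figure D3:**
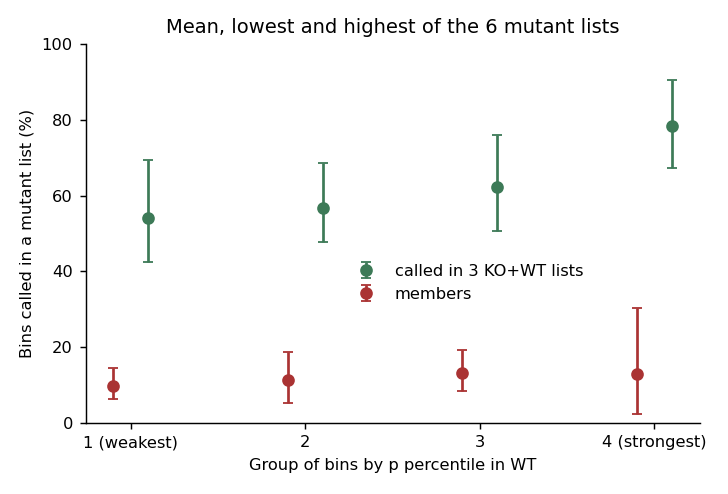
Percent of members (red) and of restored bins (green) called in a mutant list, by group of WT p percentile from the weakest to the strongest. Points are means and bars the lowest and highest of the 6 KO_5RK and KO_13RK lists. Members stay between 9.62% and 13.3% on average while restored bins go from 54.1% to 78.3%.

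Counted over all 6 mutant lists, 637 members (40.1%) were called in 1 or more, beside 81.1% of all bins called in all WT lists. A name such as "never restored" therefore holds for the KO_WT lists that chose these bins and not for every single mutant list. A call in all 3 lists of a line, the measure used for restored bins, was rare. All 3 KO_5RK lists called 26 members (1.64%) and all 3 KO_13RK lists 5 (0.315%), beside 52.9% and 39.7% of restored bins. In KO_5RK 499 members (31.4%) were called at least once, beside a background of 75.1%, and in KO_13RK 289 (18.2%), beside 62.1%. Most of these calls stood alone: 387 members were called in 1 mutant list, 147 in 2, 66 in 3, 31 in 4, 6 in 5 and none in all 6, while 31.8% of restored bins were called in all 6. Both lines called 151 members, KO_5RK alone 348 and KO_13RK alone 138. All 3 KO_5RK lists and no KO_13RK list called 12 members, 0.756% of all members beside 1.73% of the bins called in every WT list. Counted over bins with any mutant call, the 12 were 1.88% of 637 members, beside 1.03% of all 31621 such bins. The reverse pattern held for 0 members (background 0.185% of the bins called in every WT list and 0.342% of those with any mutant call).

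**Figure D4:**
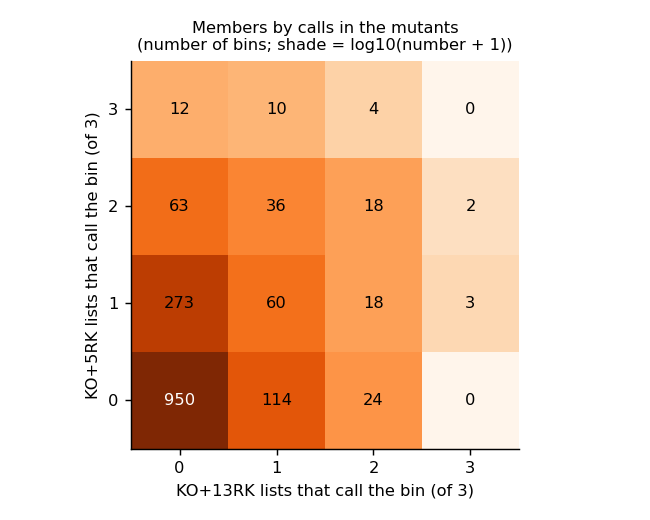
Number of members by how many KO_5RK lists (vertical) and KO_13RK lists (horizontal) call them, with the shade on a log10 scale. Of 1587 members, 950 are called in neither line, 273 in 1 KO_5RK list only and 114 in 1 KO_13RK list only.

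Ranks in the mutants can be compared only among bins that were called there, which kept 6.49% to 17.0% of members and 57.6% to 81.3% of restored bins per list. The median enrichment percentile of called members was 58.1 ± 4.51 and that of called restored bins 43.9 ± 1.43 (SD over 6 lists), a difference of 14.3 ± 5.28 (SD), positive in 6 of 6 lists (two-sided exact sign-flip permutation test, p = 0.03125, adjusted p = 0.0417). The call was lost when only enrichment values at or above the median of all lists were kept (difference 1.30, exact p = 0.5625) and in lists of equal length (5.65, exact p = 0.21875). By p the order was the opposite, with medians of 44.3 for called members and 73.6 for called restored bins. Since passing the call itself depends on these values, the difference describes the called bins and not the members as a whole.

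The members called in the most mutant lists were few. Elmod2 encodes an ELMO domain protein that activates ARL GTPases. Its bin at chr8:83316333-83316432, 3750 nt before the gene end, ranked at the 64.5th, 98.1st and 48.9th percentile in WT, at the 75.9th, 72.9th and 73.6th in the KO_5RK lists, and at the 57.5th and 66.5th in KO_13RK replicates 1 and 2. It was called in no KO_WT list, although 5 of 6 mutant lists held it. Castor1, which encodes an arginine sensor of the mTORC1 pathway, had a bin 233 nt before its gene end (chr11:4222126-4222225) that was called in all 3 KO_13RK lists, at percentiles 36.9, 43.5 and 14.3, and in KO_5RK replicates 2 and 3, at 49.1 and 14.4. Bins of Nbr1, an autophagy receptor gene, Usf1, which encodes an E-box transcription factor, and Mga, which encodes a MAX partner, were each called in all 3 KO_5RK lists and 2 KO_13RK lists, with WT means of 22.1, 14.9 and 13.4. A bin assigned to Fgfr2 was the sixth of this kind, with 2 KO_5RK and 3 KO_13RK lists, but it lay within the span of Zranb1 on the opposite strand. The low WT ranks of Nbr1, Usf1 and Mga show that calls in 5 mutant lists were not limited to strong WT bins.

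Bins called in all KO_5RK lists and no KO_13RK list included one of the strongest members. Mbip encodes a subunit of the ATAC histone acetyltransferase complex. Its bin at chr12:56328404-56328503, 147 nt before the gene end, ranked at the 99.9th, 99.3rd and 97.0th percentile in WT and at the 93.2nd, 92.4th and 95.3rd in KO_5RK. Zfand6, a zinc finger gene, showed the same pattern, with a bin 571 nt before the gene end at 89.4, 92.9 and 86.2 in WT and 97.9, 98.9 and 90.7 in KO_5RK. Trerf1, Cog5 (a Golgi complex subunit) and Btaf1 (a TATA-binding protein cofactor) followed, with WT means of 70.8, 61.8 and 47.1. With 12 such members, below or above the background by which bins are counted, these bins are given as examples. The Cog5 bin overlapped an Hbp1 member on the opposite strand (chr12:31930655-31930754), which was called in 3 KO_5RK lists and 1 KO_13RK list. The gene and the pattern at the Cog5 bin are therefore uncertain.

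Of the 6 highest-ranked members called in no mutant list, 4 were in Dpysl2, Cblb, Vps8 and Zfp827, the others in Gm44686 and Gm20388. Dpysl2, a collapsin response mediator that binds tubulin, ranked at 94.1, 97.8 and 98.2 in WT (chr14:66833065-66833164, 30250 nt before the gene end). Cblb, a ubiquitin ligase, ranked at 94.3, 97.5 and 97.5. Vps8, an endosomal tethering subunit, ranked at 97.4, 97.8 and 92.7, and Zfp827, a zinc finger gene, at 98.4, 98.1 and 90.9. All 4 were in the top 10% of each WT list by enrichment and absent from the other 12 lists. Their WT p percentiles were lower, with means of 60.4, 49.3, 61.8 and 74.1.

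A pair of strong members lay on opposite strands of the same place on chromosome 7. 1810026B05Rik, which RefSeq calls Chaserr, a long noncoding RNA, had a bin at chr7:73544104-73544203 on the minus strand, ranked at 97.5, 99.6 and 99.3 in WT, at 91.8 in KO_5RK replicate 1, 96.2 in KO_5RK replicate 3 and 98.1 in KO_13RK replicate 3. Gm44686 had the bin at chr7:73544014-73544113 on the plus strand, overlapping it by 10 nt, at 98.6, 97.5 and 97.7 in WT and in no mutant list. The sources used here do not say whether the counting behind the peaks used strand, so reads of the 2 cannot be told apart with certainty. Other members also overlapped across gene entries, such as Atf7 and Gm28047 on the same strand and Camsap2 and Gm26781 on opposite strands. The members are therefore not all separate sites.

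Some gene entries spanned many other genes and held a large number of members. Gm20388 held 75 members of 353 METTL14-dependent bins, but its bins stretched over 4434300 nt of chromosome 8. Of its 75 members, 33 lay in other RefSeq genes on the same strand (5 in Jph3, 4 in Rhou), 22 in genes of the opposite strand and 20 in none, among genes whose strand the promoter table gives. Fgfr2 (13 members of 73 bins, span 2959700 nt), Gm26561 (13 of 25) and Gm26904 (11 of 54) had the same shape, and the gene of these members is uncertain. Gm20388 also supplied 5 of the 8 members with the highest WT rank, led by chr8:121915642-121915741 inside BC048644. The members of these 4 entries were called in 1 or more mutant lists in 73 of 112 cases (65.2%), beside 564 of the 1475 others (38.2%), and KO_5RK replicate 1 held 43.8% of them where the other 5 lists held 5.36% to 18.8%.

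Most members had no other member beside them, but members adjoined members more often than the other METTL14-dependent bins did. The next bin was a member for 219 members (13.8%). The share was 8.54%, 6.70% and 5.25% for bins called in 1, 2 and 3 KO_WT lists. Of the 1162 genes, 937 had 1 member, 179 had 2 and 25 had 3, and 1368 members had no member beside them in the same gene. There were 91 runs of 2 adjoining members, 11 of 3 and 1 of 4, the last in Prrc2c at chr1:162705426-162705825, whose 4 bins were called in no mutant list. The bin next to a member was called in 1 or more KO_WT lists for 729 members (45.9%), beside 82.8% for restored bins. Such a call within 500 nt was held by 1004 members (63.3%) and by 90.3% of restored bins. For 196 members (12.4%) the next bin was itself restored, beside 43.3% of restored bins. Many members thus sat at the side of a site that KO_WT lists did call. On each of these counts, however, their share was the lowest of any METTL14-dependent set, and 583 had no KO_WT call within 500 nt.

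The mutants followed these surroundings. Members with a KO_WT call in the next bin were called in 17.2% ± 3.61 of KO_5RK and 9.83% ± 1.505 of KO_13RK lists, and those beside a restored bin in 19.9% ± 4.68 and 12.2% ± 2.84. Members with no KO_WT call within 500 nt were called in 10.4% ± 1.59 and 5.43% ± 1.24 (SD, n = 3 lists each). The isolated members were the lowest in both lines, and the difference was not tested.

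By position, 1379 members lay within the RefSeq span of their own gene, and 616 of these (44.7%) were within 2000 nt of the gene end, beside 37.8% of restored bins and 35.8% of all bins called in all WT lists. Within 500 nt of the gene start lay 15 members (1.09%), beside 0.644% and 3.06%. Of the placed members 1354 (98.2%) were in protein-coding genes and 19 in long noncoding RNA genes. By chromosome, members were 23.2% of the METTL14-dependent bins on chromosome 1 (167 of 720) and on chromosome 10, and 8.93% on X (10 of 112). These are counts of bins, and bins of a gene are not independent.

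Genes fell into those that kept other m6A calls in KO_WT and those that lost them all. Of the 1162 member genes, 560 (48.2%) had some bin in all 3 KO_WT lists and 191 (16.4%) in none, beside 67.2% and 4.62% of all 4157 genes with a METTL14-dependent bin. The rule nearly fixes the last of these, since a METTL14-dependent bin of a gene with no KO_WT call is always a member. In 371 gene entries members and restored bins occurred together, though not always next to each other. These include the wide entries Gm20388 and Fgfr2, whose bins lie among other genes. In 507 genes every METTL14-dependent bin was a member, but 430 of these had a single such bin, 68 had 2, 7 had 3 and 2 had 4.

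The 191 genes without a KO_WT call held 216 members, and 113 of them had no KO call either. In the mutants, 124 had a bin in 1 or more lists and 67 in none. They carried any bin in 24.8% ± 1.09 of KO_5RK and 18.2% ± 3.16 of KO_13RK lists, beside 70.6% ± 4.28 and 62.9% ± 4.94 for the other 971 member genes (SD, n = 3 lists each). A gene with more bins is more likely to hold any bin, and the groups were not matched for this. The 191 include genes such as Hdac3, with 1 bin in each WT list, and the others include Dst, with 85, 75 and 77. A handful of the 191 genes, named here after their values were seen, were called in both mutants. Pola2, a subunit of DNA polymerase alpha and primase, had 8, 5 and 2 bins in the WT lists and was called in 1 KO, 2 KO_5RK and all 3 KO_13RK lists. Aim2, a cytosolic DNA sensor, had 3, 5 and 4 WT bins and was called in no KO list and in 2 lists of each mutant. Srf, the serum response factor, was called in 2 lists of each mutant and also in 2 KO lists. Rb1, the retinoblastoma tumour suppressor, had 2, 1 and 2 WT bins and was called in no other list. Its member ranked at the 92.8th percentile in WT on average.

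Sfi1, a centrosome and centriole protein gene, and Abca1, a cholesterol exporter, were the 2 genes with 4 such bins, all of them members. Sfi1 had 9 bins in each WT list, 2 in each KO list and 0 in all 9 rescue lists. Its 3 adjoining members at chr11:3149551-3149850 and the fourth ranked between the 49.3rd and 81.9th percentile. Abca1 had 7, 6 and 6 bins in WT, none in KO, 1, 0 and 0 in KO_WT and none in either mutant, with members ranked from 74.5 to 92.7. In both genes the WT lists stood apart from all others.

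Genes with 3 such bins, all members, kept scattered calls elsewhere, in KO lists as well. Ash1l, a histone H3 lysine methyltransferase, had 6, 10 and 8 WT bins, 0, 1 and 2 in KO and 1, 1 and 2 in KO_WT. Chd4, the remodeler of the NuRD complex, had 4, 5 and 5 in WT, 1, 2 and 1 in KO and 0, 2 and 1 in KO_WT. In the mutants Chd4 had 2, 2 and 4 in KO_5RK and none in KO_13RK. Atg14, an autophagy initiation factor, had 4, 3 and 3 in WT, 0, 1 and 1 in KO and none in KO_WT. Its mutant counts were 0, 1 and 1 in KO_5RK and 1, 0 and 0 in KO_13RK. Abcc4, a transporter, had 9, 9 and 8 in WT, 0, 1 and 0 in KO and 0, 1 and 2 in KO_WT. Golm1, which encodes a Golgi membrane protein, had 5 to 6 WT bins, 2 in each KO list and 1, 0 and 0 in KO_WT. Vac14, which encodes a scaffold of phosphoinositide synthesis, had 4 to 5 WT bins, 1, 2 and 1 in KO and 2, 1 and 0 in KO_WT.

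**Figure D5:**
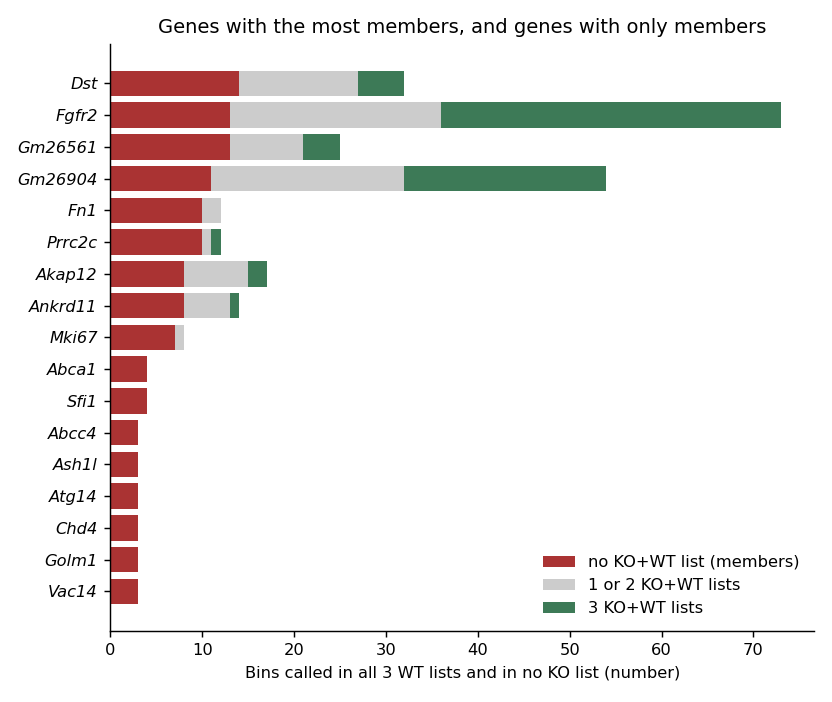
METTL14-dependent bins per gene, split by KO_WT calls: none (members, red), 1 or 2 lists (grey) and 3 lists (green). The upper genes have the most members (Gm20388, with 75 of 353, is not drawn for scale), and the lower 8, from Abca1 to Vac14, have members only.

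Among single genes the largest block of members in a normal gene span was in Dst, which encodes the cytolinker dystonin. It had 14 members of 32 bins, with 85, 75 and 77 bins in the WT lists, 38, 28 and 33 in KO, 18, 35 and 21 in KO_WT, 18, 8 and 3 in KO_5RK, and 0, 0 and 6 in KO_13RK. The KO lists thus held more Dst bins than any mutant list and than 2 of the 3 KO_WT lists. Prrc2c, an RNA-binding protein gene, had 10 members of 12 bins, none called in any mutant list. Akap12, a scaffold for protein kinase A, had 8 of 17, again none in a mutant list, with 49, 46 and 51 WT bins, 21, 24 and 28 in KO, 23, 30 and 23 in KO_WT, 27, 18 and 3 in KO_5RK, and 1, 6 and 2 in KO_13RK. The KO_WT lists thus held about as many Akap12 bins as the KO lists. Ankrd11, a chromatin regulator, had 8 of 14, of which 6 were in no mutant list.

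Mki67, the proliferation marker Ki-67, was called almost only in WT. It had 10, 9 and 17 bins in WT, 0 in every KO list, 0, 0 and 1 in KO_WT, 0 in every KO_5RK list and 1, 1 and 2 in KO_13RK. Of its 8 bins in all WT lists, 7 were members, and every KO_13RK bin was a member. Its members ranked from 2.17 to 74.1 in WT.

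Fn1, which encodes the matrix protein fibronectin, was likewise called mostly in WT. It had 30, 23 and 23 bins in WT, 0, 2 and 3 in KO, 1, 3 and 1 in KO_WT, 1, 0 and 1 in KO_5RK and none in KO_13RK. Of its 12 METTL14-dependent bins, 10 were members, between 71597421 and 71653120 on chromosome 1, and none of the 10 was called in a mutant list. By enrichment all 10 ranked low in WT, from 0.687 to 25.01. Their mean WT p percentiles were spread widely, from 8.71 to 93.9. The fibroblast marker list, of which Fn1 is 1 of 10 genes, had 25 to 33 bins in WT lists, 1 to 4 in KO, 1 to 4 in KO_WT, 0 to 1 in KO_5RK and 1 to 3 in KO_13RK. Fn1 alone made up 23 to 30 of the WT bins, so the list mostly restates it; Pdgfrb was the only other of its genes called in all 3 WT lists, and Col1a2, Col3a1, Thy1, Dcn, Lum and Postn were called in none. A call needs the transcript to be present, and the input libraries were not analysed here, so a change in transcript level and a change in methylation cannot be told apart.

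Members were counted in 17 gene lists, chosen with earlier results of these data known and compared only with the share over all genes, 17.5% of METTL14-dependent bins. Of all members, 59.9% were called in no mutant list. The matrix and fibroblast list had 12 of 26 (46.2%), from Fn1, Itga5 and Itgav, the latter 2 being integrin subunits of fibronectin receptors, and none was called in a mutant list. Primitive endoderm genes had 3 of 5, in the laminin gene Lamc1 and the nidogen gene Nid1, also in no mutant list. Adhesion receptors had 8 of 29 (27.6%), with 4 of 6 in Ephb2, an ephrin receptor, and 1 in Cdh1, E-cadherin. Ephb2 members were called 1, 1 and 2 times in the KO_13RK lists and never in KO_5RK. The shares of the matrix and primitive endoderm lists rest on few genes.

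Lists near the background were the pluripotency factors, chromatin modifiers and signalling genes. Pluripotency factors had 15 of 81 (18.5%): 5 in Jarid2, a Polycomb cofactor, 2 each in Sox2, Tet1 and Trim71, and 1 each in Lifr, Lin28a, Rif1 and Tfcp2l1. The 2 Sox2 members ranked from 0.427 to 3.29 in WT, and both KO_5RK replicate 1 and replicate 2 called 1 of them. Chromatin modifiers had 36 of 202 (17.8%), among them 3 each in Ash1l and Chd4 and 2 in Ep300, a histone acetyltransferase, whose 2 members were called 1, 2 and 0 times in KO_5RK and never in KO_13RK while 5 of its 8 METTL14-dependent bins were restored. Signalling genes had 25 of 143, but 13 of these were assigned to Fgfr2 with the uncertainty given above; others were the receptors Fgfr1, Acvr1 and Bmpr2 and the mediators Smad1 and Tcf7l2. The single Tcf7l2 bin was called in WT lists and in no other.

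Cell cycle genes had 6 members of 40 bins (15%), in Aurka, Ccnb1, Cdc25b, Cdk4, E2f8 and Rb1, and none of the 6 was called in a mutant list. The Cdk4 bin lay outside the RefSeq span of Cdk4 and within Tspan31 on the opposite strand, so its gene is uncertain. A Tspan31 member that overlapped the Cdk4 bin was called in 1 KO_5RK list. The m6A machinery had 3 of 24: 2 in Wtap, the writer's regulatory subunit, and 1 in Zcchc4, the methyltransferase for 28S ribosomal RNA. Arginine methyltransferases and their partners had 5 of 22, in Carm1, Prmt9, Tdrd3 and Wdr77. The Carm1 member was called in KO_5RK replicate 2, and both Tdrd3 members were called in the same list. Genes of excision and mismatch repair had 9 of 47, among them both bins of Neil3, a DNA glycosylase, which were called in KO_13RK replicate 3, and 2 of 17 in Msh6, of which 13 were restored.

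The other repair lists held smaller shares. Crosslink repair had 4 of 46 (8.70%), with 2 in Rad18, a ubiquitin ligase, and 1 each in Brca1 and Fancm, where 2 of the 4 bins were restored in both genes. Double-strand break repair and checkpoint genes had 4 of 53 (7.55%), with 1 in Atm, the checkpoint kinase, 1 in Rif1 and 2 in Wrn, a helicase, and none was called in a mutant list. Imprinted genes had 0 of 14. Solute carriers had 23 of 161 and zinc finger genes 22 of 170, the latter with both bins of Zfp760 called in KO_5RK replicate 1. Long noncoding RNAs had 3 of 22, in Malat1 and Dancr, and all 3 were called in a KO_5RK list; the Malat1 pair ranked below the 1st percentile in WT, in a transcript with 19 to 28 bins in every rescue list. Dnmt3a gave the 1 member of 2 bins in the list of primed-state and early lineage genes.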

How the data were processed

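The 15 peak lists of the immunoprecipitated libraries were used, 3 for each of the 5 lines; input libraries were not analysed here. The deposited lists give, for each 100 nt bin of an Ensembl gene, a score (the enrichment value, of unstated scale), a p-value and a q-value, all made by the authors. STAR 2.5.3a, kallisto 0.43.0 and GRCm38 appear in the submitters' processing notes with no role. The names of the deposited lists hold the label clam_peak, and the peak caller is not otherwise given in the sources used here. Deposited q-values reach 0.04999, so only calls past that limit are listed. Counts and coverage per bin are unknown, and no counting interval is given.

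Bins were matched by chromosome, start, end and strand, and the gene was read from the name column; the score and p were turned into percentiles within a list. Coordinates are 1-based. A name table gave symbols for 99.7% of 13765 genes, and RefSeq (GRCm38.p6) matched 95.6% of member genes by symbol. Tests used only the KO_5RK and KO_13RK lists: exact permutation of lists between lines and exact sign flips of within-list differences, two-sided, adjusted by Benjamini-Hochberg over 4 tests. The labels do not say that replicates were separate cultures, so p-values measure the spread between these libraries, which may be technical.

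The members and gene lists were chosen with earlier results of these data known. Named were the 10 genes with most members, the 8 top-ranked bins, up to 10 called in most mutant lists, 6 top-ranked in none, 6 called in all lists of a single mutant, up to 6 per gene list, and up to 8 genes with 3 or more bins that were all members. Of these, the ones that a result turns on are described, and others are marked. Alternatives were a q under 0.005, enrichment at or above the median (1.36), equal list lengths (6328), matching by overlap or a gap under 100 nt, each library left out, and the replicate block. Leaving out Gm20388, cutting only the mutant lists to equal length (9588), keeping bins within their gene's RefSeq span, and the 4 groups by WT p percentile were added after the data were seen. The rule and the tests were tested on simulated data. Python 3.11.15, numpy 2.4.6, pandas 2.3.3, statsmodels 0.14.6 and matplotlib 3.10.9 were used.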

Additional observations from a re-analysis of the deposited data

How the results depend on the processing

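The number of members was 868 with enrichment values at or above the median, 278 in lists of equal length, and 1607 to 2813 with a WT, KO or KO_WT library left out, the largest of these without a WT replicate (2602, 2648 and 2813 without replicates 1, 2 and 3). It was 1136 to 1707 under the other alternatives, 1512 of them without Gm20388. The difference between KO_5RK and KO_13RK was 3.47 with the mutant lists cut to equal length, 5.75 to 6.95 percentage points under the other settings and 4.76 to 8.11 with a library left out, and no setting could bring it under 0.05. With the replicate number as a block it was 6.45 (exact sign-flip p = 0.25). Bin by bin, same-numbered lists did not vary together (correlations -0.0293, -0.0135 and -0.0293). A correlation over bins leaves out shifts of a whole list, so it cannot show whether the numbers pair the samples. Members minus restored bins ran from -65.5 to -43.3 under 12 other settings, and from -59.0 to -48.3 with a library left out. Members minus bins called in 1 KO_WT list ran from -13.2 to -10.2, and from -17.9 to -11.5 with a library left out. In both, leaving out a mutant list gives an exact p = 0.0625 by construction, since 5 lists remain. The difference in rank by enrichment was 1.30 with the enrichment filter and 5.65 in lists of equal length, neither past 0.05 (the cause was not tested), and 10.1 to 16.4 with a library left out. No result changed direction. Depth limits what an absent call can show, and it is unknown.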
